A study of Mus musculus with 3 samples.

Results

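The 7 endocannabinoid signalling genes *Cnr1*, *Dagla*, *Daglb*, *Mgll*, *Abhd6*, *Napepld* and *Faah* were taken by symbol from the 32285 genes listed in single-nucleus RNA profiles of the adult mouse basolateral amygdala (BLA), and all 7 had unique molecular identifiers (UMIs, each standing for 1 captured RNA molecule) in both libraries used. *Cnr1* encodes the cannabinoid receptor CB1. *Dagla* and *Daglb* encode the diacylglycerol lipases that make the lipid 2-arachidonoylglycerol (2-AG), and *Mgll* (monoacylglycerol lipase) and *Abhd6* encode enzymes that hydrolyse it. *Napepld* encodes the phospholipase D that releases anandamide from its membrane precursor, and *Faah* encodes fatty acid amide hydrolase, which degrades anandamide.

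Endocannabinoids are lipid messengers made on demand, largely in the postsynaptic cell, where Gq-coupled receptors and calcium drive phospholipase C and diacylglycerol lipase. They travel backwards across the synapse to CB1, a Gi/o-coupled receptor on axon terminals that lowers transmitter release through calcium channels, potassium channels and adenylyl cyclase. In cortex, hippocampus and the BLA, CB1 is best known from terminals of cholecystokinin interneurons, and it is also present at lower levels on excitatory terminals. Nuclear RNA reports the cell body that transcribes the gene, not the terminal that carries the protein.

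The nuclei came from untreated male C57BL/6NRj mice at postnatal day 56, with both hemispheres of 4 brains from 1 litter behind a dataset, and were profiled with 10x 3' chemistry in 3 libraries of a single condition. All comparisons below are therefore between classes of nuclei within libraries 2 and 3, which held 3792 and 4588 barcodes and 24354374 and 33049068 UMIs. The sources do not settle whether the libraries came from separate pools of tissue, so the p-values measure only the spread between these libraries, which may be technical. After filtering and removal of 114 and 163 predicted doublets, 3658 and 4349 nuclei were kept.

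Classes were set by raw UMIs of a few genes. Glutamatergic nuclei had at least 2 UMIs of *Slc17a7* and *Slc17a6* together and none of *Gad1* or *Gad2* (467 nuclei in library 2 and 204 in library 3), and GABAergic nuclei had the reverse (360 and 667). In both neuronal classes the astroglial glutamate transporter genes *Slc1a2* and *Slc1a3* made up less than 0.1% of UMIs, whereas in astrocytes they made up at least 0.6% (528 and 1183 nuclei). GABAergic nuclei were divided by at least 1 UMI of *Reln* (69 and 107 nuclei), at least 3 UMIs of *Foxp2* (129 and 314), both (12 and 33) or neither (150 and 213). Oligodendrocytes (98 and 115), their precursors (93 and 65) and microglia (87 and 38) served for comparison. Of the 8007 nuclei, 4100 met no class and 2 met several, and these entered no class value. Libraries 2 and 3 shared 7 barcode sequences. Values are UMIs of a gene per 1000000 UMIs of a class in a library (CPM), written for library 2 and then library 3, and are compared between classes for 1 gene and not between genes.

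The markers showed non-neuronal nuclei beside neurons, and the paper likewise reports both. The astrocyte list summed to 15220 and 15632 CPM in astrocyte nuclei and to no more than 409.7 CPM in any neuronal class, and the microglia list to 6194 and 6116 CPM in microglia and no more than 80.5 CPM in any other class. The general neuron list summed to 15626 and 13708 CPM in glutamatergic nuclei and to 1567 and 822 CPM in astrocytes. *Reln* nuclei carried *Adarb2*, a gene of caudally derived interneurons, at 10613 and 10877 CPM. *Adarb2* was also detected in 72.3% and 78.5% of GABAergic nuclei with no *Cnr1* UMI, most of which lacked *Reln*. Its detection alone therefore does not mark the *Reln* subgroup, and its levels in the other subgroups are not given. *Foxp2* nuclei carried *Tshz1*, a gene of intercalated cells, at 543 and 478 CPM. The striatal projection neuron genes *Ppp1r1b* and *Adora2a* stayed at or below 2.78 CPM there. In the whole GABAergic class *Drd1* of the same list had a UMI in 31 and 59 nuclei, and *Drd2* in 14 and 27. Their levels in *Foxp2* nuclei, and that of *Rarb*, are not given. The paper marks amygdalostriatal cells by *Rarb* and reports no *Ppp1r1b* in its dataset. These values therefore do not settle which *Foxp2* nuclei were intercalated. The genes that define a class belong to these lists. Median depth differed between classes, at 15502 and 13010.5 UMIs per nucleus for glutamatergic nuclei, 7352.5 and 7213 for GABAergic nuclei and 2744.5 and 3024 for astrocytes.

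In the mouse genome (GRCm38, GENCODE vM21), *Cnr1* (ENSMUSG00000044288) is a protein-coding gene at chr4:33924593-33948831 on the plus strand, and *Mgll* (ENSMUSG00000033174) lies at chr6:88724412-88828360, also on the plus strand. *Faah* (ENSMUSG00000034171) is on the minus strand of chromosome 4, at chr4:115967145-116017926, and *Dagla* (ENSMUSG00000035735) is on the minus strand at chr19:10245265-10304877. *Daglb* (ENSMUSG00000039206), at chr5:143464584-143505942 on the plus strand, overlaps *Rac1* on the opposite strand. *Napepld* (ENSMUSG00000044968) lies at chr5:21662901-21701396 on the minus strand and *Abhd6* (ENSMUSG00000025277) at chr14:8002902-8056763 on the plus strand. *Mgll* overlaps 5 uncharacterized gene models, 3 of them on its own strand, *Dagla* overlaps *AC132148.1* and *Napepld* overlaps *Gm15719*, each on the opposite strand. Nuclear RNA is rich in unspliced transcripts, so reads of overlapping genes can matter here, and the sources do not state whether counting used the strand.

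Promoter windows, 250 bases before to 50 after an annotated start, are shown for *Cnr1* and *Mgll* because both were higher in *Reln* than in *Foxp2* GABAergic nuclei, as described below. The sequences are from RefSeq (GRCm38.p6, plus strand, 5′ to 3′), at chr4:33924394-33924693 for *Cnr1* and chr6:88724162-88724461 for *Mgll*. Capitals mark CACGTG, the palindromic E-box core, which reads the same on both strands.
*Cnr1* promoter: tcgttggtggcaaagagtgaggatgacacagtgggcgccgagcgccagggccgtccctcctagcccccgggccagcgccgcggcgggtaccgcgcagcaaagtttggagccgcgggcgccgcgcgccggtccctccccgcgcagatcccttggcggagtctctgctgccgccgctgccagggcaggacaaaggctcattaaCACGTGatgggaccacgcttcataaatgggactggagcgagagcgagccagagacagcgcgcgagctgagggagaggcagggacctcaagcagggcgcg
*Mgll* promoter: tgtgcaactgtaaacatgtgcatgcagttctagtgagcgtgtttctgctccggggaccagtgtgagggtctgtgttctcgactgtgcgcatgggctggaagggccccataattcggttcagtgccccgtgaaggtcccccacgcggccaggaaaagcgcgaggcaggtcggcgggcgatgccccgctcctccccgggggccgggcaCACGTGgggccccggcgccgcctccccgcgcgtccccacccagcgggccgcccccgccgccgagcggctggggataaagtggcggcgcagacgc
Windows were present for 6 of the 7 members, 10 in all, and CACGTG occurred in these 2 of them. *Cnr1* and *Mgll* each had other windows without it, so the windows shown are those that hold the motif. Among all 32851 mouse windows of the same length, 2349 (7.15%) held the motif. It was chosen for display after the expression values had been seen, and a match is a run of letters, not evidence of binding.

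*Cnr1* was highest in the *Reln* GABAergic nuclei. They carried 208 and 195 CPM (mean 201 ± 9.09 SD, n = 2 libraries), and 52.2% (exact 95% interval 39.8 to 64.4) and 43.9% (34.3 to 53.9) of them had at least 1 *Cnr1* UMI. These intervals cover counting error only. Nuclei with both *Reln* and *Foxp2* followed at 105 and 57.0 CPM, and glutamatergic nuclei at 58.6 and 45.6 CPM. GABAergic nuclei with neither gene carried 34.3 and 53.0 CPM. The values of glutamatergic nuclei overlapped with those of the classes on either side of them in this order, and the *Reln* nuclei alone lay above every other class in both libraries. Lower still were precursors (18.3 and 12.7 CPM), oligodendrocytes (12.8 and 11.8 CPM), astrocytes (9.47 and 10.1 CPM) and *Foxp2* nuclei (5.50 and 12.3 CPM). Precursors overlapped with oligodendrocytes, and *Foxp2* nuclei with both oligodendrocytes and astrocytes. The precursor and oligodendrocyte values rest on few UMIs. In microglia *Cnr1* had no UMI in 87 and 38 nuclei, which allows a share of nuclei with a UMI of up to 3.45% and 7.89% at their shallow depth (medians of 1749 and 1185.5 UMIs), not a share of nuclei that express the gene.

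**Figure D1:**
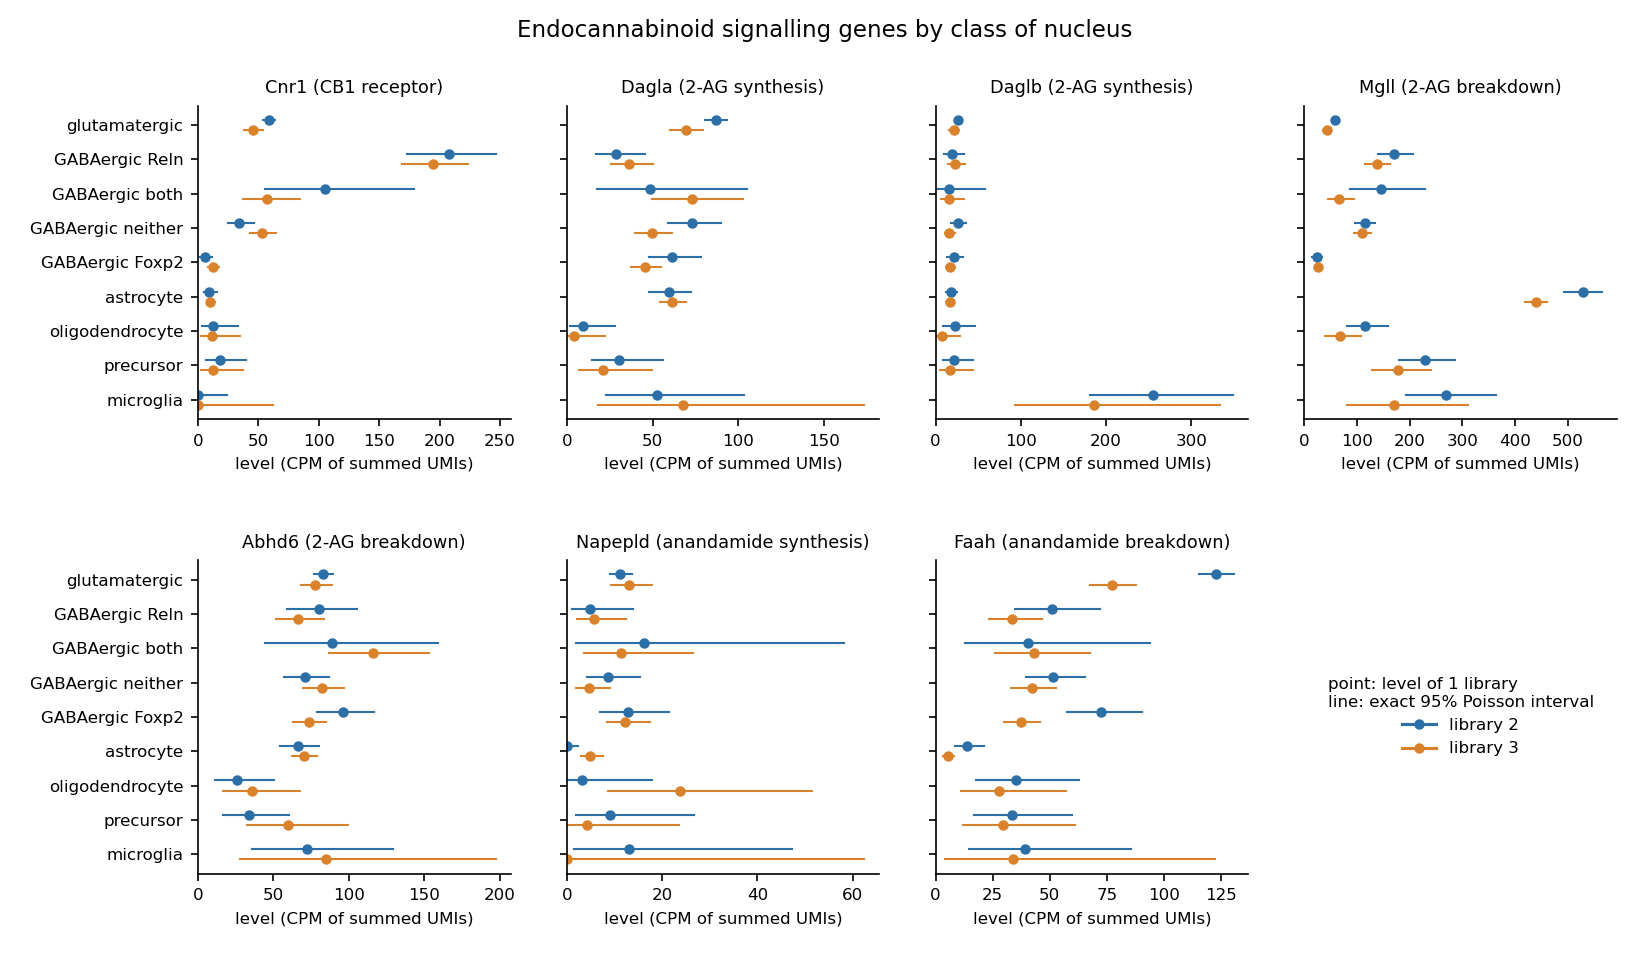
Level of each member in each class of nuclei, in CPM on a horizontal axis of its own for each gene, with 1 point for library 2 and 1 for library 3 and a line for the exact 95% Poisson interval of its UMIs, which covers counting error only. *Cnr1* peaks in *Reln* GABAergic nuclei (208 and 195 CPM), *Mgll* in astrocytes (529 and 439 CPM), *Daglb* in microglia (256 and 186 CPM) and *Faah* in glutamatergic nuclei (123 and 77.1 CPM).

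Taken as whole classes, GABAergic and glutamatergic nuclei had like levels of *Cnr1*, at 61.8 and 61.2 CPM against 58.6 and 45.6 CPM, and the difference did not pass the test (log2 fold change 0.15, SE 0.20, edgeR quasi-likelihood adjusted p = 0.771). With library 3 or library 2 left out the estimate was −0.04 and 0.35. The spread over nuclei was not alike. The 10% of GABAergic nuclei with most *Cnr1* held 80.3% and 85.2% of that class's *Cnr1* UMIs, against 51.2% and 45.6% for the top 10% of glutamatergic nuclei. A *Cnr1* UMI was found in 19.7% and 17.8% of GABAergic and in 44.97% and 41.7% of glutamatergic nuclei, at unequal depth. The share expected at 1000 UMIs was computed from the counts of nuclei with at least 1000 UMIs, which left 449 of 528 and 1152 of 1183 astrocytes. It was 4.93% and 3.92% in glutamatergic nuclei, 15.02% and 13.4% in *Reln* nuclei, and 0.843% and 1.01% in astrocytes.

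**Figure D2:**
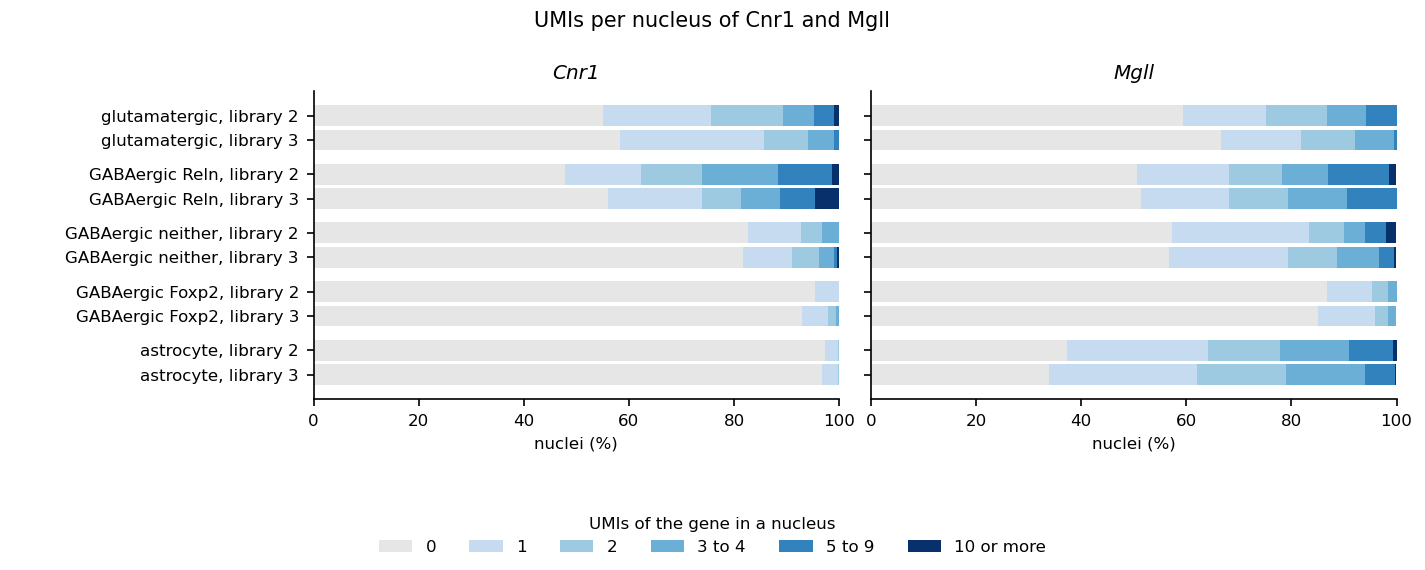
Percent of nuclei (horizontal axis) with each number of *Cnr1* (left) or *Mgll* (right) UMIs, as bars stacked from 0 UMIs in grey to 10 or more in dark blue, by class and library. The dark end of the *Cnr1* bars is widest in *Reln* GABAergic nuclei, which reached 27 and 33 UMIs, against 15 and 6 in glutamatergic and 1 and 3 in *Foxp2* nuclei.

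Between the GABAergic subgroups the *Cnr1* difference was far outside the spread of the libraries. The fitted level was 19.2-fold higher in *Reln* than in *Foxp2* nuclei (log2 fold change 4.26, SE 0.32, edgeR adjusted p = 1.47e-07), and leaving out either library gave 3.76 and 4.81 on the log2 scale. The *Foxp2* nuclei, at a median of 7579 and 6745 UMIs, were not much shallower than the *Reln* nuclei at 8104 and 7797. In the *Foxp2* nuclei the share expected to have a *Cnr1* UMI at 1000 UMIs was 0.776% and 0.857%, no more than in astrocytes.

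GABAergic nuclei with at least 5 *Cnr1* UMIs were few and held much of the class's receptor RNA. They numbered 9 of 360 (2.50%) in library 2 and 15 of 667 (2.25%) in library 3, and held 81 of 193 (42.0%) and 180 of 351 (51.3%) of the *Cnr1* UMIs. Of them 8 and 12 were in the *Reln* subgroup, 1 and 1 had both genes, 0 and 2 had neither, and none was in the *Foxp2* subgroup. *Adarb2* was detected in all of them, *Cck* (cholecystokinin) in 4 and 11, and *Calb1* (calbindin) in 4 and 12, while *Lamp5*, a neurogliaform gene, was detected in 1 and 0. Their median depth was 14722 and 13616 UMIs, above that of the class, and its part in these counts was not tested. Among GABAergic nuclei with no *Cnr1* UMI, 2.08% and 3.65% had *Cck*, 31.1% and 27.6% had *Calb1*, and 72.3% and 78.5% had *Adarb2*, so *Adarb2* was common in either set.

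The cholecystokinin gate gave the same picture at the level of summed nuclei. GABAergic nuclei with at least 1 *Cck* UMI (11 and 43) carried 418 and 315 CPM of *Cnr1*, and those without carried 47.0 and 36.0 CPM. The fitted level was 8.61-fold higher with *Cck* (log2 fold change 3.11, SE 0.24, edgeR adjusted p = 7.19e-07). With nuclei thinned to 1000 UMIs the estimate was 2.53 and no longer passed (adjusted p = 0.110). Nuclei with *Cck* were deeper, at a median of 10288 and 10133 UMIs against 7293 and 7028.5 without. No other member passed this test, and *Mgll*, at 177 and 88.9 CPM with *Cck* against 91.7 and 73.1 CPM without, had an adjusted p of 0.689. Of all genes tested 0.978% were called, 0.645% higher and 0.333% lower.

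Crossing the gates, which was done after these values were seen and carries no test, separated parts of the *Reln* subgroup. *Reln* nuclei with *Cck* (5 and 16) carried 630 and 637 CPM of *Cnr1*, and *Reln* nuclei without it (64 and 91) 160 and 103 CPM, still above the 33.6 and 34.3 CPM of nuclei with neither *Reln* nor *Foxp2* and no *Cck*. *Reln* nuclei with a UMI of *Ndnf*, *Npy* or *Lamp5*, genes of neurogliaform cells (17 and 31), carried 137 and 33.8 CPM of *Cnr1* against 238 and 268 CPM in the remaining *Reln* nuclei. *Foxp2* nuclei with *Cck* (1 and 13) had 0 and 19.7 CPM, from 0 and 3 UMIs. In library 3 a *Cck* UMI thus did not go with high *Cnr1* in every subgroup, and the 1 nucleus of library 2 decides nothing. With *Cck*, nuclei with neither gene (4 and 9) carried 58.5 and 352 CPM. Nuclei with *Cck* and both genes (1 and 5) carried 612 and 119 CPM. Gating GABAergic nuclei on *Vip*, another interneuron peptide, gave 256 and 151 CPM with it and 53.7 and 57.9 CPM without. Within *Reln* nuclei *Cnr1* was at 357 and 193 CPM with *Vip* (5 and 6 nuclei) and at 197 and 195 CPM without. There library 3 thus showed no higher level with *Vip*.

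**Figure D3:**
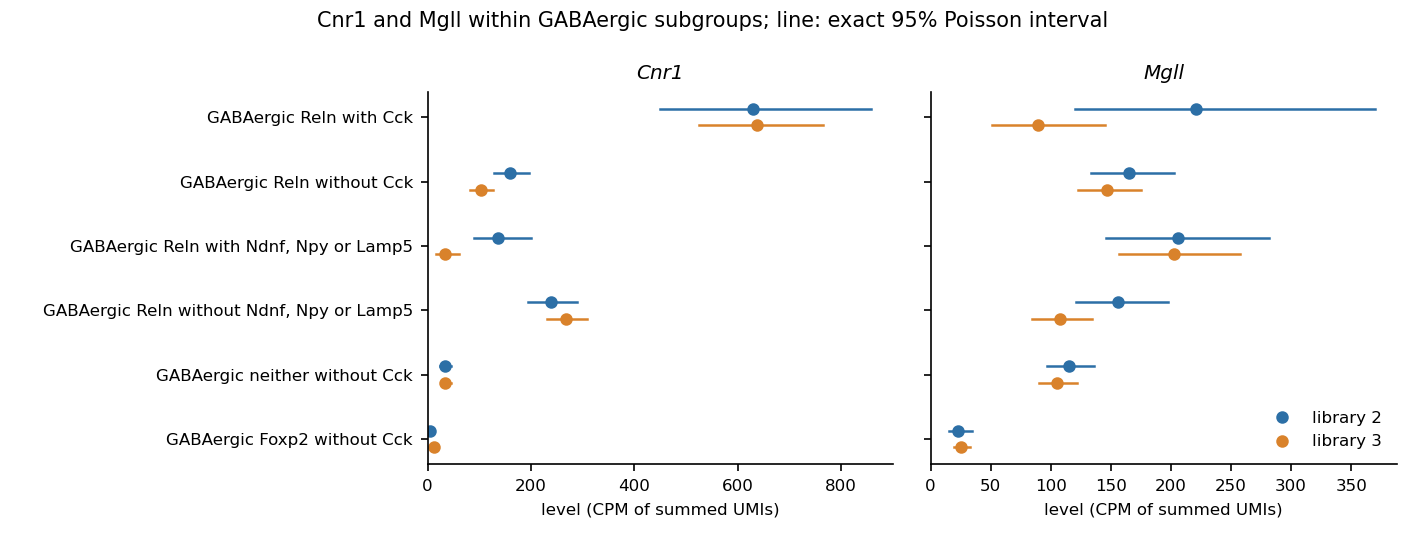
*Cnr1* and *Mgll* in GABAergic nuclei split by *Cck*, and for *Reln* nuclei also by *Ndnf*, *Npy* or *Lamp5*, in CPM with 1 point per library and its exact 95% Poisson interval. *Cnr1* is highest in *Reln* nuclei with *Cck* (630 and 637 CPM), while *Mgll* in *Reln* nuclei is higher with *Ndnf*, *Npy* or *Lamp5* (206 and 203 CPM) than without (156 and 107 CPM).

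*Cnr1* also varied among glutamatergic nuclei. Those with at least 2 UMIs of *Rspo2* and none of *Lypd1* (32 and 7 nuclei) carried 144 and 78.3 CPM, against 53.4 and 42.9 CPM in the opposite gate (208 and 90 nuclei). The difference passed the test (2.60-fold, log2 fold change 1.38, SE 0.27, edgeR adjusted p = 0.00248, with 3.49% of all genes called, 1.88% higher and 1.61% lower), and *Cnr1* was the only member that did. It rests on few molecules, since the *Rspo2* gate held 92 and 8 *Cnr1* UMIs. Its 7 nuclei of library 3 were fewer than the 10 required of the other sums. Without library 2 the log2 fold change was 0.77, and DESeq2 gave 1.25 with an adjusted p of 0.259. With library 1 added, to the *Lypd1* gate alone, edgeR gave 1.24 (adjusted p = 0.399). Across all glutamatergic nuclei, *Cnr1* was higher in both libraries in nuclei with *Rspo2* (83.3 and 67.6 CPM, against 47.9 and 40.7 CPM without), which were deeper (medians of 24689 and 18243.5 against 14115 and 12465 UMIs), and with *Etv1* (79.3 and 58.0 against 33.4 and 35.2 CPM). It was lower in both with *Cdh13* (42.5 and 38.3 against 84.9 and 66.8 CPM) and with *Otof* (37.2 and 39.5 against 73.2 and 49.4 CPM). These gates overlap, were named for their values and carry no test.

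*Dagla*, the main 2-AG synthase of adult synapses, was spread over neurons and astrocytes. Glutamatergic nuclei carried 86.7 and 69.4 CPM (a *Dagla* UMI was in a mean of 64.2% of them), nuclei with neither *Reln* nor *Foxp2* 73.2 and 49.5 CPM, and astrocytes 59.3 and 61.5 CPM. *Foxp2* nuclei had 61.4 and 45.6 CPM and *Reln* nuclei 28.7 and 36.4 CPM, the lowest of the GABAergic subgroups in both libraries, although the difference did not pass (log2 fold change −0.67, SE 0.28, edgeR adjusted p = 0.140). From glutamatergic down to *Foxp2* nuclei each class overlapped with the next in order of level, microglia (52.4 and 67.8 CPM) and nuclei with both *Reln* and *Foxp2* (48.4 and 72.9 CPM) included. The lowest levels were in oligodendrocytes, at 9.60 and 3.95 CPM from 3 and 1 UMIs. Between whole classes *Dagla* was lower in GABAergic nuclei, at 59.2 and 47.2 CPM, than in glutamatergic nuclei (log2 fold change −0.65, SE 0.19, edgeR adjusted p = 0.0171). That call was lost with totals alone as the scaling (0.0901), with no filter on low counts (0.0681), with stricter transmitter limits (0.0612), with library 1 added to glutamatergic nuclei alone (0.401) and after thinning to 1000 UMIs (0.398). Against glutamatergic nuclei *Dagla* was also lower in astrocytes (log2 fold change −0.53, SE 0.20, edgeR adjusted p = 0.0254), a call lost with no filter (0.0775), totals alone (0.168), stricter limits (0.172), thinning (0.259) and library 1 added in the same way (0.277).

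*Daglb*, the second diacylglycerol lipase, had its highest level in microglia. They carried 256 and 186 CPM, from 39 and 11 UMIs, and 32.2% and 26.3% of their nuclei had a *Daglb* UMI at the lowest depth of any class. Every other class lay between 7.90 and 26.8 CPM, and most neighbours in that range overlapped. Glutamatergic nuclei had 26.8 and 21.1 CPM, GABAergic nuclei 22.4 and 17.8 CPM and astrocytes 17.7 and 16.3 CPM. The astrocyte level was lower than the glutamatergic level by the test (log2 fold change −0.67, SE 0.26, edgeR adjusted p = 0.0327), but not with doublets ranked by Scrublet (0.0573), no filter (0.0657), library 1 added to glutamatergic nuclei alone (0.108), thinning (0.109) or totals alone (0.151), and the GABAergic level did not pass against glutamatergic nuclei (adjusted p = 0.427).

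*Mgll*, which ends most 2-AG signalling, was highest in astrocytes. Astrocyte nuclei carried 529 and 439 CPM (mean 484 ± 63.3 SD, n = 2), and 62.7% and 66.2% of them had an *Mgll* UMI although they were shallower than neurons. Microglia followed with 269 and 169 CPM and precursors with 228 and 178 CPM, ranges that overlapped with each other. *Reln* nuclei had 171 and 137 CPM, nuclei with neither gene 115 and 109 CPM, glutamatergic nuclei 58.6 and 42.9 CPM and *Foxp2* nuclei 22.9 and 26.2 CPM. The share expected to have an *Mgll* UMI at 1000 UMIs was 37.2% and 33.7% in astrocytes. It was 13.6% and 12.2% in *Reln* nuclei and 2.13% and 2.71% in *Foxp2* nuclei.

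The *Mgll* differences passed in each comparison with astrocytes and between the GABAergic subgroups. Astrocytes were 8.41-fold higher than glutamatergic nuclei (log2 fold change 3.07, SE 0.24, edgeR adjusted p = 1.03e-12) and 5.41-fold higher than GABAergic nuclei (log2 fold change 2.44, SE 0.23, edgeR adjusted p = 1.03e-10). *Reln* nuclei were 5.89-fold higher than *Foxp2* nuclei (log2 fold change 2.56, SE 0.25, edgeR adjusted p = 1.55e-06). Between whole GABAergic and glutamatergic classes *Mgll* was at 95.1 and 74.6 against 58.6 and 42.9 CPM, which did not pass (log2 fold change 0.64, SE 0.23, edgeR adjusted p = 0.0602). With the library as a block, which pairs classes from the same suspension, it did (log2 fold change 0.66, edgeR adjusted p = 0.00517), as it did with DESeq2 (0.00486), stricter transmitter limits (0.0114), the stricter glial limit (0.0140), totals alone (0.0286) and doublets ranked by Scrublet (0.0498).

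Because *Mgll* is abundant in astrocytes, astrocyte markers are given beside the difference between the GABAergic subgroups, which were held to the same limit on *Slc1a2* and *Slc1a3*. *Slc1a2* was at 67.1 and 80.6 CPM in *Reln* nuclei and at 22.9 and 52.4 CPM in *Foxp2* nuclei, while the astrocyte list summed to 118 and 211 CPM in *Reln* nuclei and to 384 and 409.7 CPM in *Foxp2* nuclei. Their part in the result was not tested. Within GABAergic nuclei *Mgll* was higher in both libraries with *Npy*, neuropeptide Y (167 and 191 CPM, against 87.8 and 64.5 CPM without), and in *Reln* nuclei it was 206 and 203 CPM with *Ndnf*, *Npy* or *Lamp5* and 156 and 107 CPM without. In the same *Reln* nuclei the order for *Cnr1* was the opposite. Among glutamatergic nuclei *Mgll* was higher with *Rorb* (121 and 94.7 CPM, against 50.1 and 34.1 CPM without). It was lower with *Otof* (33.8 and 28.1 against 75.5 and 52.1 CPM) and with *Adamts2* (24.5 and 27.4 against 69.4 and 46.1 CPM). The glutamatergic gates overlap. They and the *Npy* gate were named for their values and carry no test, and other gates, such as *Etv1*, differed in direction between libraries.

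*Abhd6*, the second 2-AG hydrolase described here, had class means from 30.6 to 102 CPM, the smallest ratio of highest to lowest among the members. Glutamatergic nuclei carried 82.9 and 77.8 CPM, GABAergic nuclei 82.3 and 78.1 CPM and astrocytes 66.3 and 69.9 CPM. Within the GABAergic class *Foxp2* nuclei had 96.3 and 73.4 CPM and *Reln* nuclei 79.8 and 66.2 CPM, and microglia had 72.1 and 84.7 CPM. Precursors (33.5 and 59.3 CPM) and oligodendrocytes (25.6 and 35.5 CPM) were the lowest, and the classes above them each overlapped with the next in order. No *Abhd6* difference passed with edgeR and no block. Astrocytes against glutamatergic nuclei gave a log2 fold change of −0.40 (SE 0.20, edgeR adjusted p = 0.102), and it passed with the library as a block (−0.42, adjusted p = 0.0264) and with DESeq2 (−0.38, adjusted p = 0.0364).

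*Napepld* had the fewest UMIs, so its values are the least precise. Glutamatergic nuclei carried 11.2 and 13.1 CPM, *Foxp2* nuclei 12.8 and 12.3 CPM and *Reln* nuclei 4.79 and 5.75 CPM. These classes overlapped with most of their neighbours in order, and oligodendrocytes differed between libraries, at 3.20 and 23.7 CPM. Astrocytes of library 2 had no UMI in 528 shallow nuclei, which limits only the share with a detected UMI (up to 0.568%), whereas astrocytes of library 3 had 20 UMIs (4.94 CPM). The lower level of astrocytes passed against glutamatergic nuclei (log2 fold change −1.95, SE 0.52, edgeR adjusted p = 0.00174) and against GABAergic nuclei (−1.49, SE 0.53, adjusted p = 0.0206, with 0.0632 in DESeq2). Without library 3 the log2 differences were −3.76 and −3.45, and without library 2 the second was −0.84. Since astrocytes of library 2 had no UMI, −3.76 and −3.45 depend on the small count added before taking logs and are not sizes. *Reln* against *Foxp2* nuclei did not pass (log2 fold change −1.23, SE 0.55, edgeR adjusted p = 0.179). Glutamatergic nuclei with *Grik1*, a kainate receptor gene, had 19.3 and 23.8 CPM against 8.85 and 8.57 CPM without it. This gate was named for its values and carries no test.

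*Faah* followed glutamatergic nuclei. They carried 123 and 77.1 CPM, and a mean of 68.2% of them had a *Faah* UMI, while GABAergic nuclei carried 58.2 and 38.5 CPM and astrocytes 13.9 and 5.43 CPM. In every class with values from both libraries except nuclei with both *Reln* and *Foxp2* (40.3 and 43.3 CPM), library 2 lay above library 3. The class order was the same in each library: glutamatergic above GABAergic above astrocyte. *Faah* was lower in GABAergic than in glutamatergic nuclei (2.24-fold, log2 fold change −1.16, SE 0.22, edgeR adjusted p = 0.000212), though not after thinning to 1000 UMIs (−0.90, adjusted p = 0.0924). Astrocytes were 13.4-fold lower than glutamatergic nuclei (log2 fold change −3.74, SE 0.29, edgeR adjusted p = 1.13e-12) and 5.98-fold lower than GABAergic nuclei (log2 fold change −2.58, SE 0.30, edgeR adjusted p = 8.58e-09). *Foxp2* and *Reln* nuclei, at 72.4 and 37.3 against 51.1 and 33.6 CPM, had overlapping values, whereas glutamatergic nuclei lay above all other classes in both libraries.

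Against the background of all genes, the members' counts read as follows. Between GABAergic and glutamatergic nuclei 2 of the 7 members (*Faah* and *Dagla*) were lower and none was higher, with 15.2% of 11092 genes called in either direction (7.63% higher and 7.58% lower). This holds for the fit without a library block. *Mgll* was called higher with the block, where 2350 of 11092 genes were called, and in the other settings given above. Astrocytes against glutamatergic nuclei gave 1 member higher (*Mgll*) and 5 lower (*Faah*, *Cnr1*, *Napepld*, *Dagla* and *Daglb*), with 52.5% of genes called (25.1% higher and 27.4% lower), so a call in this comparison was common. Against GABAergic nuclei astrocytes had 1 member higher (*Mgll*) and 3 lower (*Cnr1*, *Faah* and *Napepld*), with 46.2% of genes called (22.1% higher and 24.1% lower). *Cnr1* was 5.83-fold lower in astrocytes than in glutamatergic nuclei (log2 fold change −2.54, SE 0.26, edgeR adjusted p = 4.14e-10) and 6.49-fold lower than in GABAergic nuclei (log2 fold change −2.70, SE 0.26, edgeR adjusted p = 1.23e-10). Between *Reln* and *Foxp2* nuclei 2 members (*Cnr1* and *Mgll*) were higher and none lower, with 13.3% of genes called (6.63% higher and 6.71% lower). These comparisons share classes and are not independent of each other.

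**Figure D4:**
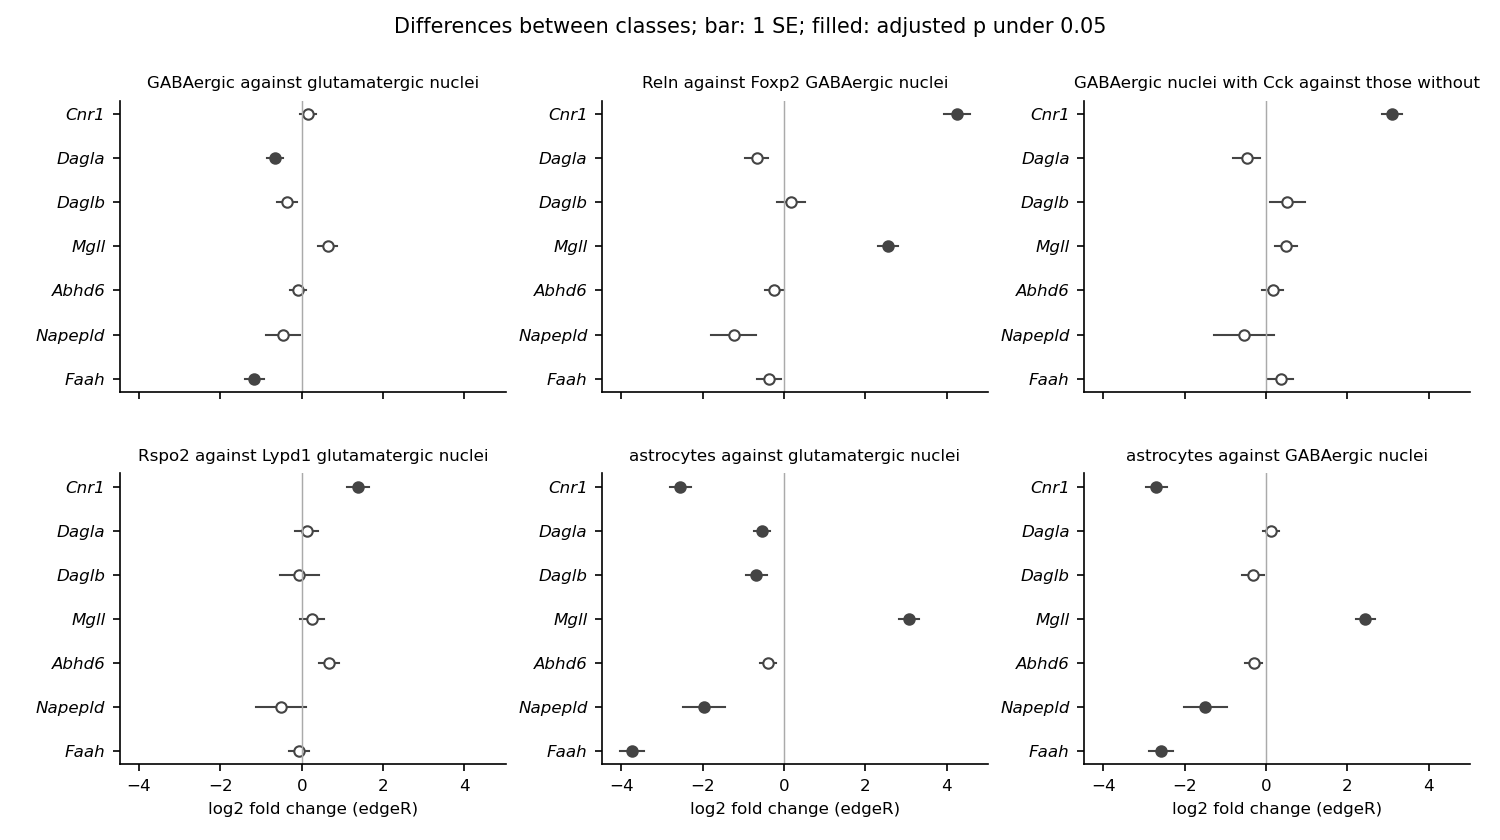
Log2 fold change of each member in each comparison of classes, with bars of 1 SE from edgeR's quasi-likelihood fit and filled points for an adjusted p under 0.05. The largest differences are *Cnr1* in *Reln* against *Foxp2* nuclei (4.26), *Faah* in astrocytes against glutamatergic nuclei (−3.74) and *Cnr1* with the *Cck* gate (3.11). *Mgll* in astrocytes against glutamatergic nuclei (3.07) comes next.

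The wider pathway was read from 4 fixed lists that hold none of the members: receptors and their partners (9 genes), enzymes and lipid carriers (15), the Gq drive upstream of diacylglycerol lipase (11) and Gi/o effectors downstream of CB1 (10). Between GABAergic and glutamatergic nuclei 1 of 5 receptor genes tested was lower, *Cnrip1*, a CB1-interacting protein (log2 fold change −0.68, edgeR adjusted p = 0.0203), and none of 11 enzymes and carriers passed. Of the 11 Gq genes 3 were higher, namely *Plcb4*, a phospholipase C (2.77), the scaffold *Homer2* (1.43) and the serotonin receptor *Htr2a* (1.09), and 2 were lower, the muscarinic receptor *Chrm1* (−0.89) and *Homer1* (−0.85). Of the 10 Gi/o effectors *Adcy5* was higher (0.62) and *Adcy1* lower (−1.02), both adenylyl cyclases. Of all genes tested in this comparison 7.63% were higher and 7.58% lower. List medians were 0.08, 0.11, 0.24 and −0.08 in the order given, beside −0.02 over all genes tested. The second cannabinoid receptor gene *Cnr2* had no UMI in glutamatergic nuclei or astrocytes of either library, and stood at 19.7 and 0 CPM in microglia. The value of library 2 is no higher than a floor of 3 UMIs, so it is not a measured level.

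In *Reln* against *Foxp2* nuclei, where *Cnr1* and *Mgll* were higher, the pathway lists moved in both directions. *Chrm3*, another Gq-coupled muscarinic receptor, was at 631 and 823 CPM in *Reln* and at 139 and 146 CPM in *Foxp2* nuclei (log2 fold change 2.33, edgeR adjusted p = 2.87e-05), and *Htr2a* was also higher (2.23, adjusted p = 0.000658). *Plcb1* (−1.19) and *Homer1* (−0.83) were lower, so 2 of the 10 Gq genes tested were higher and 2 lower, beside 6.63% and 6.71% of all genes. Among the 10 Gi/o effectors the N-type calcium channel gene *Cacna1b* (0.90) and *Adcy1* (0.89) were higher, and the potassium channel genes *Kcnj6* (−1.07) and *Kcnj3* (−0.87) and *Adcy5* (−0.80) lower. None of 3 receptor genes or 5 enzymes and carriers passed. List medians were 0.19, 0.21, −0.03 and 0.22, beside −0.02 over all genes.

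Between astrocytes and glutamatergic nuclei, where 25.1% of all genes were called higher and 27.4% lower, calls in the lists were likewise common. Of 11 enzymes and carriers 6 were higher, with *Plaat3*, a phospholipid acyltransferase (68.8 and 64.7 CPM in astrocytes, 1.96 and 2.01 CPM in glutamatergic nuclei), and the fatty acid binding protein genes *Fabp7* and *Fabp5* leading, and 2 were lower, *Pla2g4e* and *Gdpd1*. The nuclear receptor gene *Ppara*, whose protein binds fatty acid ethanolamides, was at 150 and 134 CPM in astrocytes and at 0.123 and 0.335 CPM in glutamatergic nuclei (edgeR adjusted p = 1.20e-17). It was the 1 receptor gene of 5 tested that was higher, while 2 were lower, the nuclear receptor gene *Pparg* (−3.08, at 3.16 and 2.72 CPM in astrocytes against 20.9 and 24.1 CPM) and *Cnrip1* (−1.04). Of the Gq genes 3 were higher (*Plcb3*, *Plcb4* and *Gnaq*) and 6 lower, led by *Chrm3* (−3.79), *Chrm1* (−3.67) and *Grm5* (−3.39). Of the Gi/o effectors 2 were higher (*Gnai2* and *Gnao1*) and 7 lower, led by *Kcnj6* (−3.997), *Cacna1b* (−3.67) and *Adcy1* (−3.65). The medians of the 4 lists, receptors first, were −0.53, 1.22, −1.44 and −2.76, beside −0.03 over all genes. Against GABAergic nuclei the counts of enzymes and carriers, Gq genes and Gi/o effectors were the same, and 1 receptor gene was higher and 1 lower. With the *Cck* gate and with the *Rspo2* gate no gene of the lists as counted here passed.

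The genes whose levels ran most like a member's were found over the 16 sums of classes and libraries, by Pearson's r of log2(CPM + 1) among 11092 genes. The sums share libraries and unequal depths, so r is a description. For *Cnr1* they were *Pde5a* (r = 0.930), *Trpc7* (0.896) and *A230057D06Rik* (0.896), and for *Mgll* *Cpq* (0.881), *Acss1* (0.880) and *Tle4* (0.877). For *Dagla* they were *Sept11* (0.932), *Ankrd13d* (0.912) and *Sntb2* (0.901), and for *Abhd6* they included *2210408F21Rik* (0.916) and *Tspan33* (0.914). Among the members themselves the pair most alike was *Dagla* and *Abhd6* (r = 0.792) and the pair least alike *Mgll* and *Faah* (r = −0.689). *Cnr1* and *Mgll*, although higher together in *Reln* nuclei, had r = −0.160 over the 16 sums, with *Mgll* peaking in astrocytes, where *Cnr1* was low.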

How the data were processed

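Nuclei of mouse basolateral amygdala were profiled by 10x 3' v3.1 chemistry in 3 libraries. Per the submitters' processing notes and the methods, the authors aligned reads with Cell Ranger 7.0.1 to mm10 and deposited filtered matrices of raw UMI counts per gene and barcode, not normalized; strand use in counting is not given in the sources used here. From these counts, barcodes with more than 200 genes, under 20% mitochondrial and under 0.2% haemoglobin UMIs were kept. The study's ribosomal criterion (over 5%) was left out, since 0, 10 and 35 barcodes met it. Doublets were predicted against simulated doublets (pN 0.25, pK 0.09, 10 components, 0.8% per 1000 barcodes), a reimplementation in Python 3.11.15 of the study's caller.

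UMIs were summed per class and library (at least 10 nuclei, except the *Rspo2* gate, with 7 in library 3) and tested with edgeR 4.0.16 (TMM, filterByExpr, quasi-likelihood F test, Benjamini-Hochberg over all genes tested, threshold 0.05, R 4.3.3). The edgeR fit was also run on simulated counts. The filter tested 11092 genes in the comparisons of the 3 main classes, and all 7 members passed it in each comparison. Intervals of shares and sums cover counting error only. For a sum of 0 the limit given in the text is 3 counts over the number of nuclei. The figures draw the exact Poisson interval there, which reaches somewhat higher. Members, pathway lists, gates and motif were chosen with earlier results of these data known. All members are named. From each pathway list up to 3 genes per direction were named in each comparison other than astrocytes against GABAergic nuclei, which is given by counts, by size of log2 fold change among those called, with *Cnr2* added after its values were seen.

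Classes of 1 library come from the same suspension, so libraries pair the sums. Deviations of same-library sums from class means correlated at 0.0489 to 0.288. Library 1 (819 barcodes, 8078394 UMIs) entered no comparison, since 758 of its 814 nuclei met no class. Scrublet scores, stricter class limits, no filter, DESeq2 1.42.0, a library block, thinning to 1000 UMIs, totals alone and leaving out each library were alternatives. With a library left out, the value is the difference of log2 CPM within the other library, with no new fit. GENCODE vM21 matched 32235 of 32285 gene IDs. A gene of the Gq list and a gene similar to a member are not reported here, and the Gq list was counted without the former.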

Additional observations from a re-analysis of the deposited data

Results flagged for a closer look

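Library 1 entered none of the comparisons above, because 758 of its 814 nuclei met no class, and all 7 members had signal there above the floor of 3 UMIs (0.374 CPM). Over all its nuclei *Cnr1* stood at 105 CPM, against 47.4 and 41.8 CPM over all nuclei of libraries 2 and 3, and *Faah* at 167 CPM against 97.97 and 52.3 CPM. *Daglb* stood at 29.8 CPM against 25.3 and 18.6 CPM, and *Napepld* at 12.5 CPM against 10.2 and 10.1 CPM. *Mgll* was lower than in both other libraries, at 90.9 CPM against 110 and 118 CPM, and so was *Abhd6*, at 63.3 CPM against 77.7 and 70.6 CPM. *Dagla* lay between them, at 71.5 CPM against 77.8 and 59.0 CPM. The mix of nuclei in library 1 is not known from its class counts (42 glutamatergic, 7 GABAergic and 6 astrocyte nuclei), so these totals are not levels of any class, and the part of that mix in them was not tested.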

How the results depend on the processing

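Among the alternatives run, no log2 fold change of a member that passed the test turned direction. Of the values of members under other settings, 379 kept their side of the threshold, 20 lost it and 8 passed it anew. Members called between GABAergic and glutamatergic nuclei numbered 2, and 1 with no filter, 1 with library 1 added and 0 after thinning to 1000 UMIs. Between astrocytes and glutamatergic nuclei the 6 became 3 with library 1 and 2 after thinning, and between astrocytes and GABAergic nuclei the 4 became 2 after thinning. In these comparisons of main classes, 6 of the 7 members were tested with library 1 and 5 after thinning. The single call of the *Cck* gate became 0 of 5 members tested after thinning. That of the *Rspo2* gate became 0 of 6 with DESeq2 and 0 of 6 with library 1. After thinning no member could be tested in the *Rspo2* gate. Fewer UMIs and fewer testable genes remain after thinning, and otherwise the cause was not tested. Of 63 levels, 55 and 59 stayed within 1.5 times when library 2 or 3 was left out. Called genes in all changed by over 1.5 times as follows: GABAergic against glutamatergic 1687 to 422 (library 1) and 596 (thinned), astrocytes against glutamatergic 5818 to 3317 and 2486, astrocytes against GABAergic 5124 to 2430 (thinned), *Reln* against *Foxp2* 1211 to 731 (DESeq2) and 496 (thinned), *Cck* 97 to 168 (no filter), 173 (library as replicate block), 58 (DESeq2) and 4 (thinned), *Rspo2* 295 to 110 (DESeq2), 3 (library 1) and 20 (thinned). The number of genes tested changed too, so these counts are not shares. The main classes had 11092 tested, 7780 with library 1 and 4648 thinned. *Reln* against *Foxp2* had 9075, 10524 (DESeq2) and 2670 (thinned). The *Cck* gate had 9923, 20595 (no filter), 6650 (DESeq2) and 3204 (thinned). The *Rspo2* gate had 8451, 4974 (DESeq2), 7306 (library 1) and 1068 (thinned). The block of paired libraries changed no member's call other than those given for *Mgll* and *Abhd6*. Scaling by totals alone, added after seeing the data, moved the median of all genes in astrocytes against glutamatergic nuclei from −0.03 to 0.12. Stricter limits for the *Cck* and *Rspo2* gates, and library 1 for *Reln* against *Foxp2*, *Cck* and astrocytes against GABAergic nuclei, were not run for want of nuclei. In the other comparisons library 1 added only glutamatergic nuclei (42) or nuclei of the *Lypd1* gate (12), and none to the opposite group. Library and class cannot be told apart in the calls lost there. Having 2 libraries per class and the few UMIs of *Napepld* and of the gates limit precision.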

Other observations

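Gates on other subtype genes, 21 of which had at least 10 nuclei in both libraries, gave further member values without a test. *Abhd6* in glutamatergic nuclei was at 99.97 and 104 CPM with *Rspo2* and at 75.5 and 71.9 CPM without it, and *Faah* was at 90.1 and 34.5 CPM in nuclei with *Slc17a6* alone against 124 and 81.2 CPM in the other glutamatergic nuclei. *Sst* nuclei of the GABAergic class had *Cnr1* at 45.2 and 30.1 CPM against 63.7 and 66.6 CPM without *Sst*. The gate on *Drd2* was discordant for *Cnr1*, at 190 and 36.8 CPM with it and 54.9 and 62.6 CPM without. The order of classes by share of nuclei with a UMI had the same class at its top at full depth and, as an expected share, at 1000 UMIs for 6 of the 7 members. For *Napepld* it moved from glutamatergic nuclei (15.4%) to oligodendrocytes (1.64%).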
